A study of Mus musculus with 138 samples.

Results

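The mitochondrial ribosomal protein genes were taken as all genes of the count tables whose names start with Mrpl or Mrps followed by a digit, without pseudogene names ending in -ps. This gave 76 of 25900 genes, 47 named Mrpl and 29 named Mrps. By the structure of the mammalian mitochondrial ribosome, 49 of the 76 encode proteins of the large subunit and 26 encode proteins of the small subunit. Mrps18a and Mrps30 carry small subunit names but sit in the large subunit. Mrps36 carries a ribosomal name but encodes an adaptor of the 2-oxoglutarate dehydrogenase complex, so it follows the name rule and not the function. The name rule misses 7 further ribosomal proteins of the mitochondrion, which are described at the end with the other genes of mitochondrial translation.

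Mitochondrial ribosomes translate the few respiratory chain subunits that the mitochondrial genome encodes. All of their proteins are encoded in the nucleus, made in the cytosol and imported, and many are counterparts of bacterial ribosomal proteins while others exist only in mitochondria. Oocytes hand a large stock of mitochondria and of stored transcripts to the embryo, and in the mouse the embryo's own genome becomes broadly active at the 2-cell stage.

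The libraries measured polyadenylated RNA of mouse embryos at the 2-cell stage, 1 library per well of a plate, in 2 experiments, and the design text names maternal SMARCA5, a chromatin remodelling ATPase, as the factor under study. The wild-type group has the genotype Smarca5 +/+ and the maternal deletion group the genotype Smarca5 +/-, from deletion females mated with wild-type males, although the titles of both groups name matKO females. The deleting Cre, the strain and the age of the animals are not given in the sources used here, and each replicate number, called a technical replicate in the design text, pools embryos of several matings. In the other experiment, wild-type zygotes received a-Smarca5 antibody (anti-SMARCA5) or IgG for TrimAway, in which TRIM21 directs an antibody-bound protein to degradation, or no injection, and each replicate number is another pool of embryos. Of 138 libraries, 116 held at least 100000 counts and were used: 22 wild type, 28 maternal deletion, 31 anti-SMARCA5, 20 IgG and 15 uninjected.

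Median depth was 545264 counts in wild type and 1618486 in maternal deletion, and the groups of the injection experiment had medians between 1460667 and 1708008. Smarca5 RNA was 413 ± 197 CPM (a library's counts scaled to a common total; mean ± SD, n = 22) in wild type and 98.6 ± 81.6 CPM (n = 28) after deletion. On the log2 scale it fell by 2.06 (adjusted p = 2.63e-07, SE 0.31). Anti-SMARCA5 libraries, where protein and not RNA was the target, differed from IgG libraries by -0.65 (adjusted p = 0.124). In all, 3 libraries of replicate 2 stood apart from the rest of their group and replicate in Smarca5 and in the oocyte gene Gdf9, each towards the other group. Well A04, labelled maternal deletion, held 319 CPM of Smarca5 and 22.4 CPM of Gdf9, and wells G05 and H05, labelled wild type, held 153 and 172 CPM of Smarca5 and 627 and 287 CPM of Gdf9. The other wild-type libraries of replicate 2 held 68.3 CPM of Gdf9 or less, but in replicate 1 well C07 reached 279 CPM, close to H05. Well H09 of deletion replicate 1 had as much Smarca5 as A04 (322 CPM), but with 1076 CPM of Gdf9, above every wild-type library, it was kept among the others. The counts of members called after deletion, and the fits of the members named first, are also given without the 3 libraries. Trim21 RNA was 0 in all 10 IgG libraries of replicate 1 and had a median of 282 CPM in the 10 of replicate 3, of which 2 were at 0, so the IgG libraries were not alike in it. It was also at 0 in 1 of the 7 anti-SMARCA5 libraries of replicate 2. Summed oocyte markers (10 genes, such as Gdf9, Bmp15 and Zp3) had medians of 1149 CPM in wild type and 11355 CPM after deletion. Their ranges were 238 to 4617 and 621 to 34463 CPM. Figla had a median of 0 in both groups and Mos had one of 0 in wild type. Gdf9 made up 29624 of 34463 CPM in deletion well F03 of replicate 2 and 1895 of 12788 CPM in well A09 of replicate 1. Without the 3 libraries the medians were 693 and 12092 CPM, but Gdf9, by which they were partly set apart, is in the sum. Summed 2-cell markers (9 genes in the tables) had medians of 772 and 108 CPM, with ranges of 424 to 1710 and 0 to 1929 CPM, and Tdpoz4, Obox3 and Hspa1a had a median of 0 after deletion. Among 10 cumulus and granulosa markers, none had a median above 0 in wild type and 1 had after deletion. In the injection experiment the oocyte marker medians were 1540 CPM uninjected, 1523 CPM for IgG and 1986 CPM for anti-SMARCA5, with ranges of 625 to 2782, 1002 to 10438 and 966 to 14150 CPM. The part of these marker differences in the results below was not tested.

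RefSeq start-site windows were at hand for 67 of the 76 genes, and 6 stretches of 120 bases that end just before the annotated start are shown because they belong to members whose RNA fell or rose after deletion. Mrps11 and Mrpl46 lead, since their RefSeq starts lie only 41 bases apart on opposite strands and their 2 stretches share the bases between the starts. Mrpl12 and Mrpl43 fell too, and Mrps14 and Mrps36 rose. Capitals mark matches, on either strand, to 4 motifs: GCGCANGCG (NRF1), CCGGAAG (ETS), AAGATGGCG (YY1) and GGGCGG (SP). Sequences are from RefSeq on GRCm38.p6, 5′ to 3′ on the gene's own strand.
Mrps11, chr7:78783011-78783130, plus strand: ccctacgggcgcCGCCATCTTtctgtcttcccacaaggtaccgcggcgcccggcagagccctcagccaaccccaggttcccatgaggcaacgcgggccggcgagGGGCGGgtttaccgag
Mrpl46, chr7:78783090-78783209, minus strand: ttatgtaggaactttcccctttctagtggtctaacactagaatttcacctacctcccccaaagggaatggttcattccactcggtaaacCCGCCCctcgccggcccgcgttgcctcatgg
Mrpl12, chr11:120484517-120484636, plus strand: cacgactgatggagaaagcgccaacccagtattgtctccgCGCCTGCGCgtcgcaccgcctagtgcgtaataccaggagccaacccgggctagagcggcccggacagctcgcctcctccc
Mrpl43, chr19:45006443-45006562, minus strand: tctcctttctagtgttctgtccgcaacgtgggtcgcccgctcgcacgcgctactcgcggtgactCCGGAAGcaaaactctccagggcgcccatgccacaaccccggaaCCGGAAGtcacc
Mrps14, chr1:160195095-160195214, plus strand: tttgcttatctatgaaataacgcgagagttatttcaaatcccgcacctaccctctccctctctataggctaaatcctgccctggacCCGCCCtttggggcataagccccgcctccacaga
Mrps36, chr13:100744660-100744779, minus strand: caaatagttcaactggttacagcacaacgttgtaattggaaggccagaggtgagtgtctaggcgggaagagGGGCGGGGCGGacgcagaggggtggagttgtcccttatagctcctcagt
Mrps11 holds a YY1 and an SP match, Mrpl46 reads the same SP match on its own strand, Mrpl12 holds 1 NRF1 match, Mrpl43 holds 2 ETS matches, Mrps14 1 SP match and Mrps36 2 overlapping SP matches. Not all changed members hold a match there. The same stretches of Mrpl20, Mrps10 and Mrpl28, which fell, and of Mrpl18 and Mrpl24, which rose, hold none and are not shown.

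Over the whole 300-base windows, the motifs were more frequent in the members than in the table as a whole, as a description of letters and not of binding. An ETS match lay in 32.9% of the members' 73 windows and in 8.86% of all 32851 windows. For NRF1 the shares were 20.5% and 6.25%, for YY1 11% and 1.4%, and for SP 52.1% and 35.7%. Among members that fell after deletion ETS matches lay in 26.7% of 30 windows, against 35.5% of the 31 windows of the other tested members, NRF1 matches in 20% against 25.8%, YY1 matches in 6.67% against 16.1% and SP matches in 56.7% against 48.4%. No test was made of these shares.

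Levels are TMM-scaled CPM, that is, CPM of a library's total times its TMM factor, set within each experiment. The labels do not say how many cells a well held, so fewer transcripts per cell, fewer cells and more RNA of other genes cannot be told apart. The 76 genes summed to 1181 to 6933 CPM in the 22 wild-type libraries (median 3006) and to 1258 to 5677 CPM in the 28 maternal deletion libraries (median 1710). The ranges overlapped, and the wild-type libraries fell into 2 blocks by collection. The 8 libraries of replicate 1 lay between 1181 and 1884 CPM (median 1498), and the 14 of replicate 2 between 2057 and 6933 CPM (median 4407), with no overlap. After deletion the replicates were closer, with medians of 1646 CPM (n = 13) and 2146 CPM (n = 15). In replicate 1 the deletion range of 1295 to 2393 CPM covered most of the wild-type range. In replicate 2 it was 1258 to 5677 CPM, and its highest value was well A04. The wild-type wells G05 and H05 were the lowest of their replicate, at 2057 and 2313 CPM. Without these 3 libraries the replicate 2 ranges were 2858 to 6933 CPM in wild type and 1258 to 2782 CPM after deletion and did not overlap. These wells, set apart by Smarca5 and Gdf9, were the ones that made the ranges overlap, so the gap is a description and not a test. Replicate 1 and replicate 2 of this table were also run on different lanes, and the effects of collection and of lane cannot be told apart. Oocyte markers differed between the wild-type collections as well, with medians of 3021 CPM in the 8 libraries of replicate 1 and 545 CPM in the 14 of replicate 2. Without wells G05 and H05 the latter was 457 CPM, but these wells were set apart partly by Gdf9, which is in the sum.

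**Figure D1:**
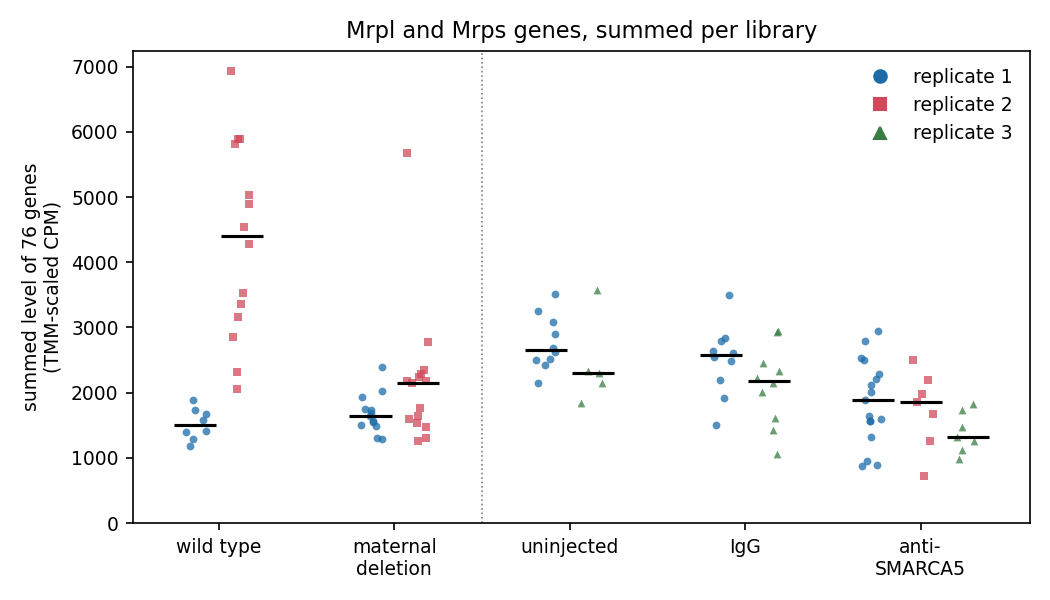
Summed TMM-scaled CPM of the 76 Mrpl and Mrps genes in each of the 116 libraries (points), by group and replicate number, with the median of each replicate as a line; the dotted line parts the 2 experiments. Wild-type replicate 2 (2057 to 6933 CPM) lies above wild-type replicate 1 (1181 to 1884 CPM), and deletion well A04 lies at 5677 CPM.

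In the injection experiment the sums were 1839 to 3581 CPM uninjected (median 2514), 1064 to 3501 CPM for IgG (median 2398) and 720 to 2943 CPM for anti-SMARCA5 (median 1679), all overlapping. The lowest replicate median was 1322 CPM, in the 7 anti-SMARCA5 libraries of replicate 3. Levels of different members were compared per kilobase of exon. Mrpl18, which sits in the central protuberance, had the highest mean in uninjected embryos at 99.2 CPM per kb, and it was also first for IgG (107 CPM per kb), anti-SMARCA5 (92.0) and maternal deletion (105). Exons of Mrpl18 overlap those of Tcp1 on the opposite strand, and the use of strand in counting is not given, so reads may be shared. Mrpl40 was first in wild type at 106 CPM per kb, ahead of Mrpl41 at 102 CPM per kb. Their medians were 92.5 and 74.1 CPM per kb. That order is set over 2 unlike collections: in replicate 1 of wild type Mrpl34 was first at 48.8 CPM per kb, ahead of Mrpl18 at 44.1 and Mrpl40 at 42.1, and in replicate 2 Mrpl40 was first at 143 CPM per kb and Mrpl18 was at 51.6. Mrps31, Mrps35 and Mrps5 were near the bottom in every group, with means under 1 CPM per kb in each of the 5 groups. Exon lengths are the union of all annotated exons, which lowers the value of genes whose long exons are little used. Mrps10 and Mrpl48 have long unions, of 8079 and 8152 bases. So do Mrps35 and Mrps5, near the bottom above, with 8631 and 6578 bases. The use of the exons of these genes was not measured.

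Many of these genes were lower and a few higher after maternal deletion than in wild type. Of the 59 members that passed the filter on low counts, 30 fell and 5 rose at an adjusted p under 0.05, against 26.4% lower and 30.3% higher over the 8518 genes tested. The median log2 fold change of the 59 was -1.05 and that of all genes tested was 0.18. These values were not alike in the 2 collections: fitted alone, replicate 1 gave 5 lower and 5 higher of 28 tested members with a median of 0.25, and replicate 2 gave 21 lower and 2 higher of 72 with a median of -1.28. A gene can pass the filter through the group where it is high, so the count was also taken without it. Then all 76 members were tested, 38 fell and 4 rose, against 17.8% lower and 31.8% higher of 20995 genes, and the median of the 76 was -1.22. The 17 members that failed the filter had wild-type means of 1.90 to 25.5 CPM, and 8 of them fell and 0 rose without it. With the replicate number as a block, 24 fell and 5 rose, against 25.8% and 31.8% of all genes. Without the 3 libraries that stood apart, 29 fell and 5 rose, against 28.1% and 32% of all genes, and the median was -1.23. Leaving out well H09 too, an alternative chosen after seeing the data, gave 30 lower and 5 higher of 58, against 28.5% and 31.6% of all genes, and the same median of -1.23. Total counts in place of TMM moved the median of all genes from 0.18 to -0.04, and relative to it the members' median was -1.23 with TMM and -1.24 with total counts. The labels do not tie a well to a mating, so p-values measure the spread between wells, which may be technical.

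In the fit over both collections, members of both subunits fell. Over all genes tested there, 26.4% fell and 30.3% rose, and the counts below are to be read against these shares. In the large subunit 20 of 38 tested members fell and 3 rose (median -1.22), and in the small subunit 10 of 20 fell and 1 rose (median -0.90). Proteins with a bacterial counterpart and proteins found only in mitochondria gave 10 of 22 and 10 of 16 lower in the large subunit, and 7 of 13 and 3 of 7 lower in the small subunit. Differences between these classes were not tested. Exons of 29 members overlap those of another gene and the counting of strand is not given in the sources used here, so reads of such pairs may be shared. Of the tested members with such an overlap 13 of 25 fell (median -0.92), and of those without it 17 of 34 fell (median -1.15).

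**Figure D2:**
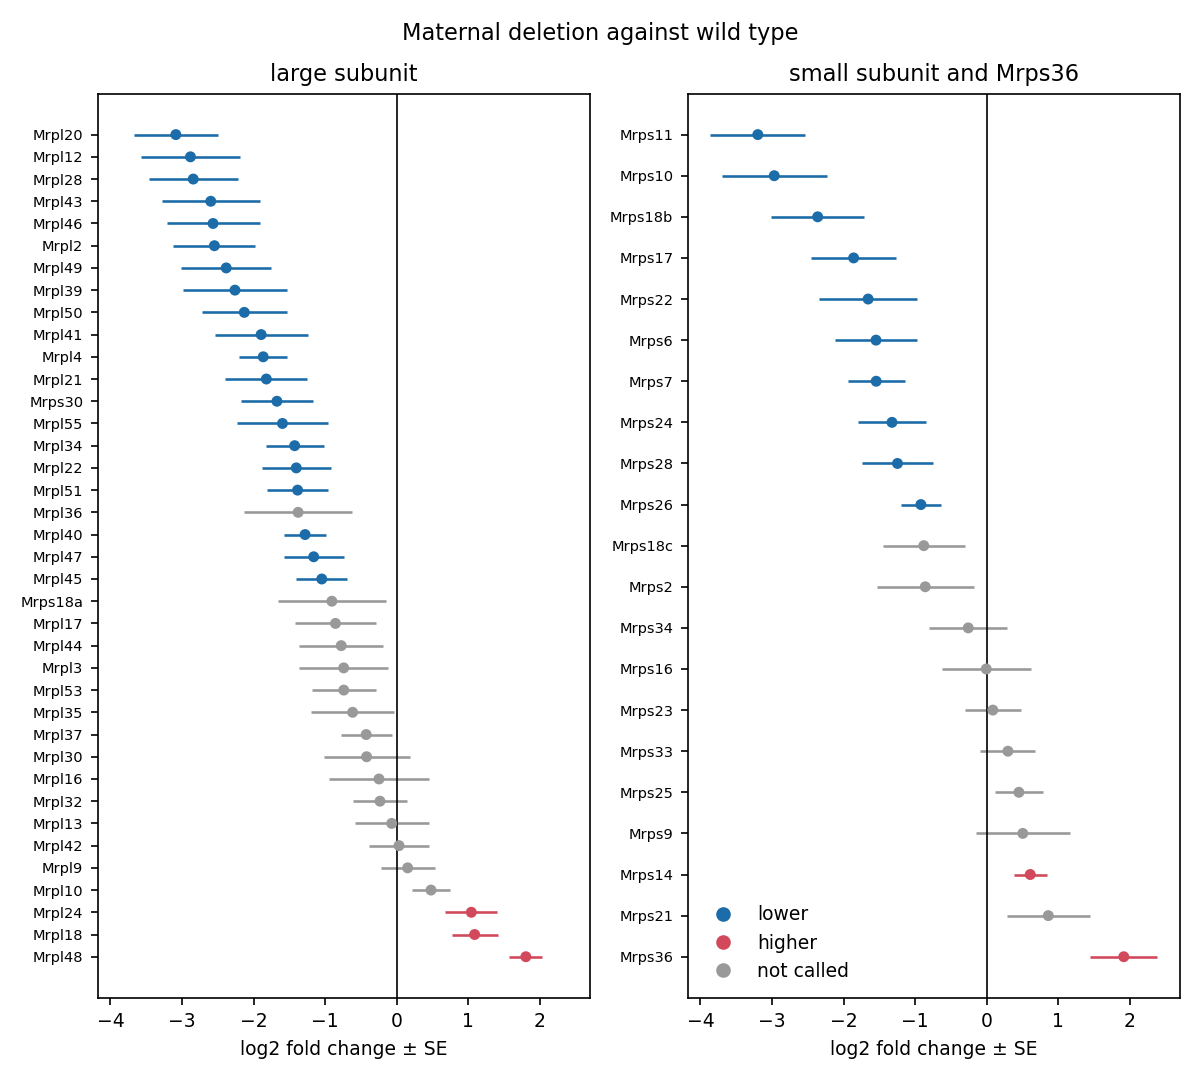
Log2 fold change with its SE of each of the 59 tested members, maternal deletion (n = 28) against wild type (n = 22), for the large subunit on the left and the small subunit with Mrps36 on the right; colours show adjusted p under 0.05 lower or higher. The values run from -3.20 for Mrps11 to 1.92 for Mrps36.

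Among members whose average log2 CPM was 4 or more and whose direction was shared by both replicates, the largest falls were in Mrps11, Mrpl20, Mrps10, Mrpl12, Mrpl28 and Mrpl43. Mrps11 (chromosome 7, 78783119 to 78792989), the counterpart of a bacterial platform protein of the small subunit, was at 7.95 to 174 CPM in wild type (median 51.2) and at 0 to 57.4 CPM after deletion (median 0). It was at 0 in 17 of the 28 deletion libraries and in none of the 22 wild-type libraries, and 20 deletion libraries lay below the lowest wild-type library. The highest deletion value was well A04, and the next was 21.0 CPM. Means were 60.5 ± 43.4 CPM and 6.15 ± 12.2 CPM, which is a log2 difference of -3.20 (SE 0.67, adjusted p = 7.76e-05), and -3.74 (SE 0.68) without the 3 libraries.

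Mrpl20 (chromosome 4, 155803536 to 155809776), a large subunit protein whose bacterial counterpart binds ribosomal RNA early in assembly, was at 4.95 to 289 CPM in wild type (median 78.2) and 0 to 181 CPM after deletion (median 4.47). Again well A04 was the highest deletion library, and the next was 30.7 CPM. The log2 fold change was -3.09 (SE 0.59, adjusted p = 2.09e-05), and -4.14 without the 3 libraries. Mrpl12 (chromosome 11, 120484613 to 120489065), the stalk protein that recruits translation factors, was at 7.72 to 159 CPM in wild type (median 69.0) and 0 to 96.8 CPM after deletion (median 0). It was at 0 in 17 of 28 deletion libraries, and its log2 fold change was -2.88 (SE 0.70, adjusted p = 0.000501), and -3.43 (SE 0.71) without the 3 libraries. The other stalk member that was tested, Mrpl10, had a log2 fold change of 0.48 (adjusted p = 0.124).

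Mrps10 had medians of 25.8 CPM in wild type and 0 after deletion, where 17 of 28 libraries held no count. Its log2 fold change was -2.97 (SE 0.73). Mrpl28 had medians of 77.5 and 2.1 CPM and a log2 fold change of -2.84 (SE 0.62). For Mrpl43, found only in mitochondrial ribosomes, the medians were 66.5 and 0.18 CPM and the log2 fold change was -2.60 (SE 0.68). Ranges of all 3 genes overlapped between the groups. Mrpl46 (chromosome 7, 78775236 to 78783531), named here as the neighbour of Mrps11 after its values were seen, fell by 2.57 on the log2 scale (SE 0.65, adjusted p = 0.000833), from a median of 45.8 CPM to 0.38 CPM. Without the 3 libraries the values were -3.03 for Mrpl46, -3.52 for Mrpl28 and -3.81 for Mrpl43, and Mrps10 did not pass the filter. The annotated exons of the pair overlap on opposite strands, so without stranded counting part of their reads cannot be told apart.

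A group of 5 members rose. Mrpl48 (chromosome 7, 100545751 to 100608297), a protein of the central protuberance found only in mitochondrial ribosomes, was at 5.79 to 72.8 CPM in wild type (median 39.0) and at 54.2 to 226 CPM after deletion (median 131). All but 1 of the 28 deletion libraries lay above the highest wild-type library, and the exception was well A04 at 54.2 CPM. Means were 40.1 ± 17.8 and 140 ± 51.2 CPM, and the log2 fold change was 1.80 (SE 0.23, adjusted p = 1.00e-08), or 1.85 (SE 0.24) without the 3 libraries. Its exons overlap those of Rab6a on the opposite strand. Mrps36 (chromosome 13, 100735955 to 100744659), the dehydrogenase adaptor, had a median of 3.61 CPM in wild type and 21.4 CPM after deletion, with ranges of 0 to 29.0 and 0 to 57.6 CPM. Its log2 fold change was 1.92 (SE 0.47, adjusted p = 0.000582), or 1.83 (SE 0.49) without the 3 libraries. The wild-type values of Mrps36 lie near the floor of counting. In replicate 1 wells C07, D07 and G07 held no count, and the 7.72 CPM of well E07 came from a library of 121794 counts. Mrpl18 rose by 1.09 (SE 0.32) and Mrpl24, at the exit of the peptide tunnel, by 1.04 (SE 0.36). In edgeR within each collection, Mrpl18 was at 1.63 in replicate 1 (adjusted p = 0.0136) and 0.57 in replicate 2 (adjusted p = 0.218). Mrpl24 was at 0.40 (adjusted p = 0.643) and 1.48 (adjusted p = 0.00708). Exons of Mrpl18 and Mrpl24 overlap those of Tcp1 and Rrnad1 on the opposite strand. Mrps14 (chromosome 1, 160195215 to 160202170), near the head of the small subunit, had medians of 109 CPM and 185 CPM and a log2 difference of 0.61 (SE 0.23, adjusted p = 0.0232). With total counts it was 0.36 (adjusted p = 0.156), which is not past the threshold.

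**Figure D3:**
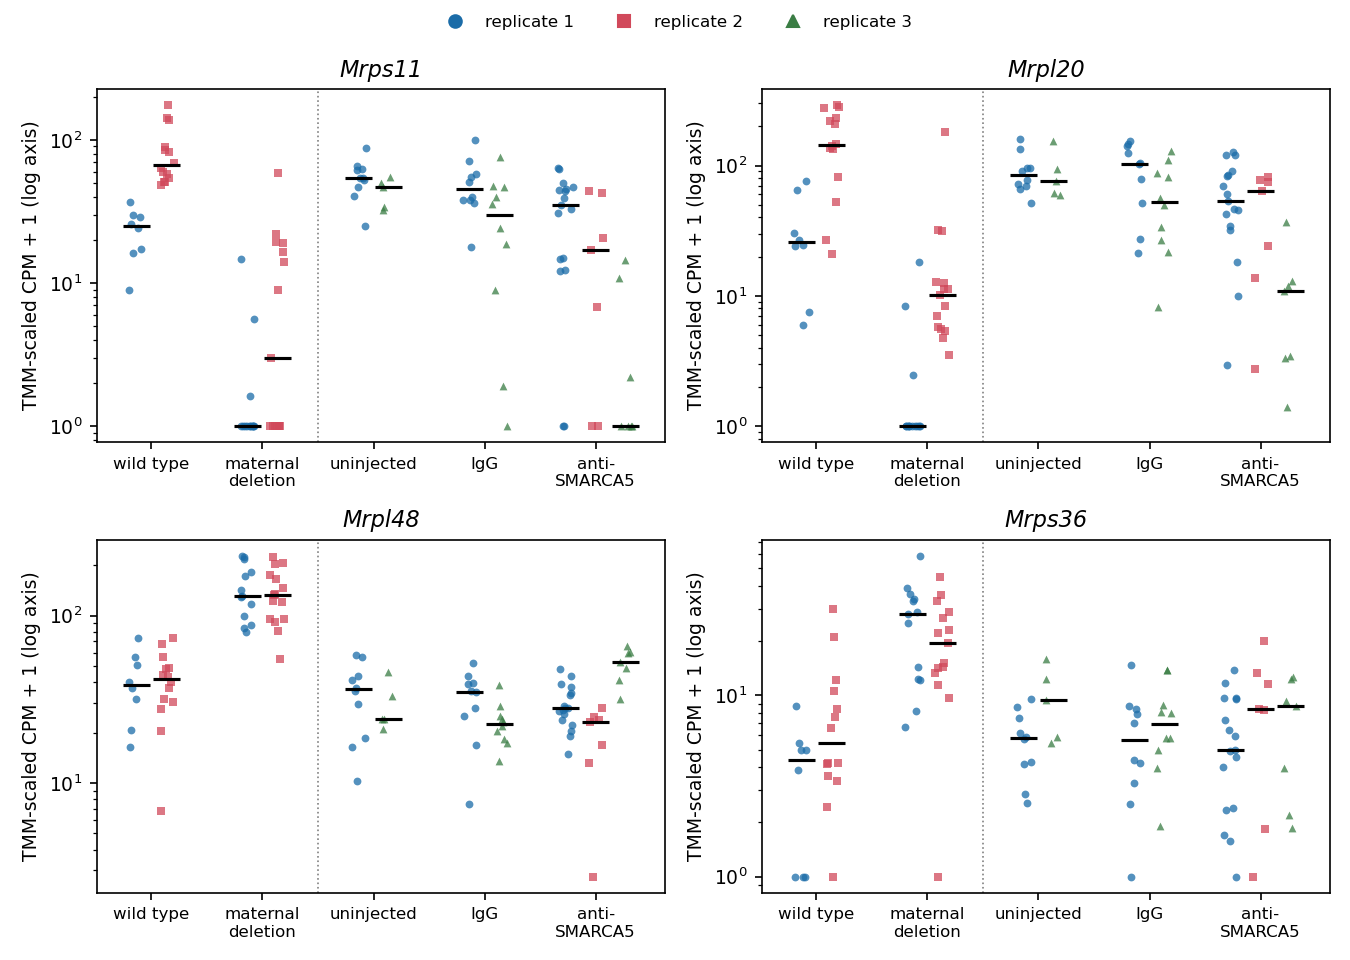
TMM-scaled CPM plus 1, on a log axis, of Mrps11, Mrpl20, Mrpl48 and Mrps36 in each library by group and replicate number, with replicate medians as lines. Mrps11 is at 0 CPM in 17 of 28 deletion libraries, and Mrpl48 is above every wild-type library in all deletion libraries but well A04.

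Members known from human mitochondrial disease or with a special place in the ribosome were described whatever their change. Mrps7, a protein of the small subunit head, fell by 1.54 on the log2 scale (SE 0.40, adjusted p = 0.00105) and Mrps22 by 1.66 (SE 0.69, adjusted p = 0.0353), the latter with an adjusted p of 0.0943 under the block. Mrps30 fell by 1.67 (SE 0.51) and Mrpl45, which holds the ribosome at the inner membrane, by 1.05 (SE 0.36). Mrpl3, Mrpl44, Mrps34 and Mrps16 had log2 fold changes of -0.74, -0.78, -0.26 and -0.01, and none passed the threshold. Under the block Mrps16 was at 0.50 and Mrps34 at 0.11, on the other side of 0. Mrps12, the decoding centre protein, was not tested, and without the filter its log2 fold change was -1.07 (adjusted p = 0.254). Of the 3 paralogs of bacterial S18, Mrps18b fell by 2.36 (SE 0.65), while Mrps18a and Mrps18c were at -0.91 and -0.88 with adjusted p of 0.306 and 0.187. The difference between the paralogs was not tested.

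The collections were then compared, since the wild-type sums had split by replicate. In the fit with an interaction of group and replicate, the members' median log2 fold change was 0.16 in replicate 1 and -1.33 in replicate 2, against 0.14 and 0.28 over all genes. Without the 3 libraries the members' medians were 0.23 and -1.62. In replicate 1, 28 of 59 members lay below 0, and in replicate 2, 49 did. Calls within a collection were 8 lower and 6 higher in replicate 1 (15.3% and 10.1% of all genes) and 26 lower and 3 higher in replicate 2 (20.7% and 30.7%). The 7 members that fell in both were Mrps11, Mrpl20, Mrpl12, Mrpl46, Mrpl43, Mrpl49 and Mrpl39, named here after their values were seen. Mrpl48 and Mrps36 rose in both, Mrps36 from wild-type values near the floor. Without the 3 libraries Mrps36 was at 1.27 in replicate 2 (edgeR adjusted p = 0.0662), which is not past the threshold. The share of all genes called in both collections was not counted, so no background stands beside these counts. The test of the difference between replicates called 0 of 59 members with edgeR, with 7 at an unadjusted p under 0.05, against 0.763% of genes called. Without the 3 libraries it called 4, all more negative in replicate 2, against 12.6% of genes. With total counts or without the filter it called 1, and no share of all genes stands beside that count. The smallest p in this test was that of Mrpl9, with a difference of -2.67 (SE 0.71, adjusted p = 0.0530).

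Each collection was also fitted alone. Without replicate 2, 28 members passed the filter, of which 5 fell and 5 rose, against 20.2% and 23.6% of 6389 genes, and their median was 0.25. Without replicate 1, 72 were tested, of which 21 fell and 2 rose, against 15.7% and 24.1% of 9730 genes, and their median was -1.28. In the interaction fit the log2 fold change of Mrps11 was -3.80 in replicate 1 and -2.97 in replicate 2, the latter -3.64 without the 3 libraries. Mrps11 ranged from 7.95 to 35.5 CPM in the 8 wild-type libraries of replicate 1 and from 47.6 to 174 CPM in the 14 of replicate 2. After deletion its medians were 0 and 1.99 CPM. For Mrpl48 the wild-type medians were 37.5 and 40.5 CPM and the deletion medians 130 and 133 CPM, which lie close beside ranges of 5.79 to 72.8 and 54.2 to 226 CPM.

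**Figure D4:**
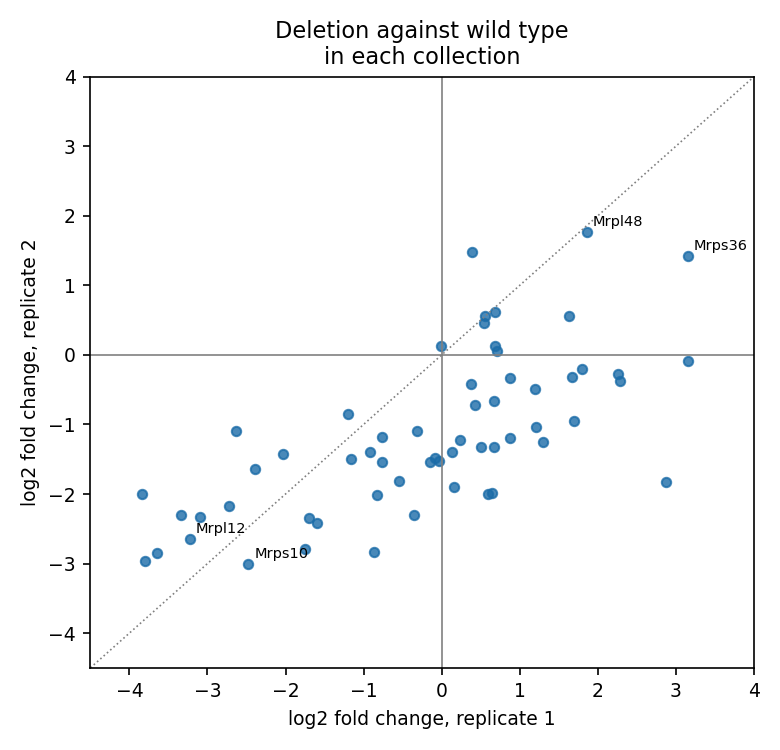
Log2 fold change of each of the 59 tested members in replicate 1 (horizontal) and replicate 2 (vertical), maternal deletion against wild type, from the interaction fit, with equality as a dotted line. Most points lie below 0 on the vertical axis (49 of 59) and spread to both sides on the horizontal axis (28 of 59 below 0).

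After injection of the antibody to SMARCA5, the median log2 fold change of the members was below 0 against either control group, while 1 of 66 members passed the test against IgG and 16 of 68 against uninjected embryos (13 and 25 with the replicate block). Against IgG, 66 members were tested, and only Mrps30 fell and 0 rose in edgeR, against 1.3% lower and 1.73% higher of all genes, with 15 at an unadjusted p under 0.05. The members' median log2 fold change was -0.43, against 0.04 over all genes, and 53 of 66 lay below 0. DESeq2 called 8 lower and 0 higher, against 4.22% and 5.42% over the 10447 genes tested. With the replicate number as a block, 13 fell and 0 rose, against 13.6% and 12.1% of all genes, and 13 of 66 is to be read against those shares. Without replicate 1, 0 fell, against 0% of all genes, with 4 at an unadjusted p under 0.05. The untested members were Mrpl11, Mrpl14, Mrpl23, Mrpl36, Mrpl52, Mrpl54, Mrps18a, Mrps31, Mrps35 and Mrps5.

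Mrps30 (chromosome 13, 118380110 to 118387252), a large subunit protein despite its name, was at 16.2 to 187 CPM in IgG libraries (median 82.5) and 0.996 to 94.5 CPM in anti-SMARCA5 libraries (median 36.2). The ranges overlapped, with 7 of 31 anti-SMARCA5 libraries below every IgG library. Its log2 fold change was -0.98 (SE 0.29, adjusted p = 0.0473), and -1.35 (adjusted p = 0.00267) under the block. It lost the threshold without replicate 1 (adjusted p = 0.401), without replicate 3 (adjusted p = 0.0551), with total counts (adjusted p = 0.0999) and with a depth minimum of 500000 counts (adjusted p = 0.0629). Uninjected embryos had a median of 58.6 CPM, and against them the log2 fold change was -0.61 (adjusted p = 0.126).

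Against uninjected embryos, which share the anti-SMARCA5 libraries with the comparison above, 16 of 68 members fell and 0 rose, against 10.4% lower and 17.5% higher of all genes. The median was -0.66, against 0.13 over all genes, and 61 of 68 lay below 0. The block gave 25 lower, against 14.6% of all genes. Without replicate 1, whose number holds 17 of the 31 anti-SMARCA5 and 10 of the 15 uninjected libraries, 0 of 65 fell, against 0% of all genes, with 8 at an unadjusted p under 0.05. The largest falls by the naming rule were in Mrps24 at -1.30, Mrpl17 at -1.29, Mrpl9 at -1.12, Mrpl4 at -1.05, Mrpl21 at -1.01 and Mrps7 at -0.96. Mrps24, the counterpart of bacterial S3 at the mRNA entry, was at 21.5 to 90.7 CPM uninjected (median 43.3) and 0 to 47.5 CPM after anti-SMARCA5 (median 15.9), and 19 of 31 libraries lay below the lowest uninjected library. Its SE was 0.34 and its adjusted p 0.00613. Exons of Mrps24 overlap those of Urgcp on the same strand, so reads may be shared. Mrps12 fell by 1.86 (SE 0.46, adjusted p = 0.00397). For Mrps12 and the genes of the largest falls, the IgG mean lay between the uninjected and the anti-SMARCA5 mean. In the order uninjected, IgG and anti-SMARCA5, means were 17.2, 7.14 and 4.60 CPM per kb for Mrps12 and 20.4, 11.9 and 9.22 for Mrpl9. They were 43.3, 29.6 and 22.0 CPM per kb for Mrps7 and 31.7, 26.6 and 12.7 for Mrps24. The untested members were Mrpl11, Mrpl14, Mrpl23, Mrpl52, Mrpl54, Mrps31, Mrps35 and Mrps5. Total counts moved the median of all genes from 0.13 to -0.29, and relative to it the members' median was -0.79 with TMM and -0.69 with total counts.

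IgG against uninjected called 0 of 68 members in edgeR and 0 in DESeq2, against 0% of all genes in edgeR and 2.63% in DESeq2. Mrpl9, Mrps12, Mrps21 and Mrps7, all with a lower mean for IgG, were the 4 members at an unadjusted p under 0.05 in edgeR. The members' median log2 fold change was -0.26, against 0.03 over all genes, and 56 of 68 lay below 0. Within the anti-SMARCA5 group Mrpl20 had medians of 52.5 CPM in replicate 1, 62.8 CPM in replicate 2 and 9.95 CPM in replicate 3. For Mrps11 these medians were 34.2, 15.9 and 0 CPM, and for Mrpl12 46.6, 20.8 and 4.05 CPM. IgG medians of replicates 1 and 3 were 102 and 51.8 CPM for Mrpl20, 44.4 and 29.1 CPM for Mrps11, and 72.2 and 37.1 CPM for Mrpl12. In both injected groups and in uninjected embryos, medians were lower in replicate 3 than in replicate 1 for these 3 genes. The ranges overlapped between replicates. Uninjected medians of replicates 1 and 3 were 82.9 and 75.3 CPM for Mrpl20 and 63.5 and 46.4 CPM for Mrpl12. In the same anti-SMARCA5 libraries the summed 2-cell markers had medians of 1089 CPM in replicate 1 and 186 CPM in replicate 3, and the oocyte markers 1601 and 3526 CPM. Their part in these differences was not tested.

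Deletion and antibody were set side by side through the comparison with wild type and the comparison with IgG, which share no library. Over the 57 members tested in both, the log2 fold changes had Pearson's r = 0.692, and over the 8238 genes tested in both r was 0.763. Both are descriptions over genes, which are not independent replicates. Of the 30 members that fell after deletion, 28 (93.3%) lay below 0 after anti-SMARCA5, with a median of -0.60. Of all 2241 genes that fell after deletion, 94.9% did, with a median of -0.57. Mrps11 was at -3.20 and -0.81, Mrpl20 at -3.09 and -0.70, and Mrpl12 at -2.88 and -0.60 in the 2 comparisons. Mrpl48 was at 1.80 and 0.26 and Mrps36 at 1.92 and 0.05.

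**Figure D5:**
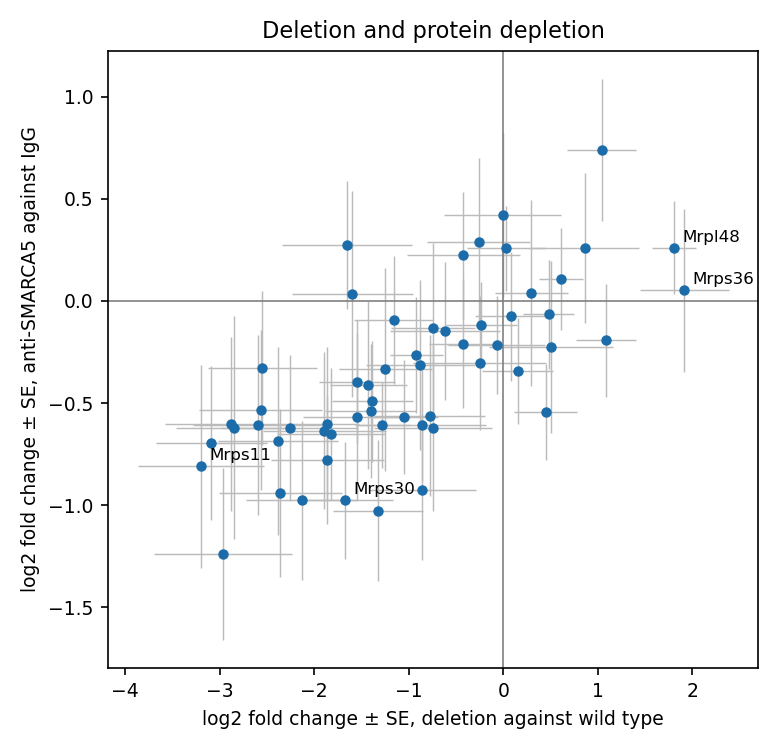
Log2 fold change with SE of the 57 members tested in both comparisons, maternal deletion against wild type (horizontal) and anti-SMARCA5 against IgG (vertical). The points run from the lower left to the upper right, with Mrps11 at -3.20 and -0.81 and Mrpl48 at 1.80 and 0.26.

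The difference of the 2 effects was tested in 1 fit, where 72 members passed the filter. Of these, 9 were more negative after deletion and 3 more positive, against 8.73% and 10.5% of 12035 genes, or 12 of 72 against 19.2% in either direction. Mrps11 and Mrpl20 differed most, each by -2.43 (SE 0.83 and 0.69, adjusted p = 0.0293 and 0.00817), and Mrps36, Mrpl48 and Mrpl18 differed by 1.80, 1.46 and 1.20. With the replicate block 1 member was more negative and 3 were more positive, against 3.68% and 7.99% of genes. Mrpl20 was the one more negative (adjusted p = 0.0469), and the others were Mrpl48, Mrps36 and Mrps25. Without the 3 libraries 11 were more negative and 4 more positive, against 11.1% and 17.5% of 11962 genes. Untested here were Mrpl11, Mrpl14, Mrpl52 and Mrps31.

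The other genes of mitochondrial translation were counted in the deletion comparison. Of 49 such genes 29 were tested, and 7 fell and 2 rose, with a median of -0.54, where 26.4% of all genes tested fell and 30.3% rose. Of the 7 ribosomal proteins that the name rule misses, 6 were tested. Gadd45gip1 fell by 1.65 (SE 0.41), and Mrpl57, listed as Mrp63, fell by 1.31 (SE 0.39). Dap3, a GTP-binding protein of the small subunit, rose by 1.17 (SE 0.39). Among assembly factors 3 of 14 fell and 1 rose: Trub2, a pseudouridine synthase, fell by 3.91 (SE 0.70), and Nsun4, a ribosomal RNA methyltransferase, rose by 1.12 (SE 0.25). Among translation factors Gfm2 fell by 0.90 and Mtif3 by 0.85 of 8 tested. Of the 12 genes of protein import, 8 fell and 0 rose, against the same shares of all genes, with a median of -2.18. Among them Timm17a of the inner membrane channel fell by 2.81 (SE 0.52), and Tomm40, Tomm22 and Tomm20 of the outer membrane complex fell by 2.56, 2.26 and 2.23. For anti-SMARCA5 against IgG these import genes had a median of -0.75 and the other translation genes a median of -0.17, and 0 of either passed the threshold in edgeR, with 7 and 6 at an unadjusted p under 0.05.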

How the data were processed

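RNA was measured by the scNMT-seq protocol with Nextera XT libraries, per the labels' protocols. The submitters' processing notes name Trim Galore 0.6.5, cutadapt 2.3 and HISAT2 2.1.0 with GRCm38. The counter, the use of strand and the treatment of reads with several positions are not given in the sources used here. The deposited values are raw counts per gene, not normalized by the authors, in 2 tables with the same 25965 lines, of which 57 gene IDs had more than 1 line and were summed, giving 25900 genes. Low counts were uneven in parity, with 134662 cells of 1, 30228 of 2 and 84269 of 3, so counting error may be larger than the counts imply.

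Libraries under 100000 counts and 3 wells without an embryo entered no comparison, which left 116 of 138. All 6 IgG libraries of replicate 2 fell under that minimum. Counts were tested with edgeR 4.0.16 in R 4.3.3 (TMM, filterByExpr, robust quasi-likelihood F test), separately per comparison, with Benjamini-Hochberg adjustment over all genes tested and a threshold of 0.05. The SE is the log2 fold change divided by the square root of F. DESeq2 1.42.0, other scalings, no filter, other depth minimums, a replicate block and left-out replicates were alternatives. The script was tested on simulated data. The labels' replicate numbers mark shared collections or pools, so they pair the groups. Apart from the interaction fit, the main fits hold no term for the replicate number. Their SE and p-values leave this pairing out, and the replicate block takes it in. The 7 anti-SMARCA5 libraries of replicate 2 have no IgG or uninjected partner among the libraries used. The deviations of same-numbered libraries from their group means correlated at 0.540 for deletion and wild type, 0.592 for anti-SMARCA5 and IgG, 0.0798 for anti-SMARCA5 and uninjected and 0.428 for IgG and uninjected.

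The members and gene lists were chosen with earlier results of these data known. Named members are the fixed list of landmark genes and, per comparison, up to 6 falls and 6 rises largest in log2 fold change among those past the threshold whose average log2 CPM was 4 or more and whose direction was shared by every common replicate number. Untested members are named where they are 12 or fewer.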

Additional observations from a re-analysis of the deposited data

Results flagged for a closer look

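The effect of deletion against wild type differed from the effect of anti-SMARCA5 against IgG, by a test of the difference itself (edgeR), in 12 of 72 members, against 19.2% of the 12035 genes tested. The log2 difference was -2.43 for Mrps11, -2.43 for Mrpl20, -2.37 for Mrpl38, -2.33 for Mrpl12, -2.28 for Mrpl2, -2.24 for Mrpl28, -2.08 for Mrpl46, -1.99 for Mrps22 and -1.34 for Mrpl4. It was 1.20 for Mrpl18, 1.46 for Mrpl48 and 1.80 for Mrps36. With the replicate block 3 of these 12 still passed.

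Counts also appeared in wells without an embryo, which enter no comparison. Well H03 held 8 counts in 3 members of 1875 counts in all, well G03 held 2 of 823, and well F05 held 0 of 453.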

How the results depend on the processing

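For deletion against wild type, the 35 members past the threshold were still past it in 35 cases with DESeq2, 34 with total counts, 34 without the filter, 29 with the replicate block 28 with a minimum of 500000 counts, 30 of the 32 tested with all libraries, 22 without replicate 1 and 8 of the 16 tested without replicate 2, and none changed sign. Members called higher numbered 3 with that minimum and 3 with all libraries, and both counts stand here without the share of all genes. Leaving out a replicate gave 2 to 5 higher and 5 to 21 lower, and fewer members were tested without replicate 2. Mrps16 turned to 0.50 with the block and 0.075 with the 500000 minimum, Mrps34 to 0.11 with the block, and Mrpl3 to 0.18 without replicate 2 (range -1.11 to 0.18). The cause was not tested. For anti-SMARCA5 against IgG, members called lower numbered 13 with the block, 8 with DESeq2, 0 with total counts, 5 without the filter (1 higher), 0 with the 500000 minimum and 2 with all libraries, and 0 to 2 when a replicate was left out. Against uninjected, members called lower numbered 25 with the block and 0 to 15 when a replicate was left out, with 9 without replicate 3. Of all genes, 13.6% were lower with the block and 4.22% with DESeq2 against IgG, and 14.6% with the block against uninjected. The other counts of these 2 comparisons stand here without the share of all genes and cannot be read against it. The difference of the deletion effect between replicates was called for 1 member with total counts, 1 without the filter and 4 without the 3 libraries that stood apart, a setting applied to this test after seeing the data. Without the 3 libraries 12.6% of all genes were called, and the counts of the other settings stand without such a share. The difference between deletion and antibody was called more negative for 1 member with the replicate block. IgG against uninjected called 0 members under the 9 alternatives run. Wild-type libraries had the lowest median depth, and what depth limits was not tested.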
